A study of Zea mays with 32 samples.

Results

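Reventador is a maize (Zea mays) landrace of western Mexico grown for popping, and its leaf primordia are compared here between the ninth and the fifth leaf. The comparison rests on 4 of the 32 libraries of the series, chosen by their labels: 2 of the ninth leaf and 2 of the fifth leaf. All plants of the series grew at 35 °C, a treatment the labels call heat, so the ninth-leaf group and the fifth-leaf group share the heat, the landrace and plastochron stage 4 and differ in the leaf and in the developmental stage of the plant (labelled V9 and V5). The other 28 libraries come from 7 further landraces (Gordo, Jala, Mushito, Nal-tel, Palomero, Tabloncillo and Zapalote), again with 2 libraries of each leaf, and they serve to estimate the spread between replicates and to show where Reventador differs. Plants of a landrace, a farmer-maintained variety, are not genetically uniform, and the labels do not say how many plants or which parents stand behind a library.

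A primordium is a leaf that is still forming beside the shoot tip, and the plastochron counts how many younger leaves have started since it did. Maize makes juvenile leaves first and adult leaves later, and these differ in surface wax, hairs and cell shape. This change of phase is known to be paced by a microRNA that is abundant in juvenile shoots and declines as they age. Close spacing of veins is laid down in the primordium, and the title of the series places the data in a study of vein density and photosynthesis.

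Transcript levels were given as normalized counts, that is, read counts divided by 1 factor per library. Recovery of whole reads gave 68.1 and 69.5 M reads in the ninth-leaf libraries and 61.7 and 64.1 M reads in the fifth-leaf libraries of Reventador. The 2 ninth-leaf replicates differed by a median of 0.19 on the log2 scale over the 26156 genes tested, the smallest of the 16 replicate pairs of the series, and the 2 fifth-leaf replicates by 0.34, the fifth largest. At least a 2-fold gap separated the replicates in 11.2% of these genes in the ninth leaf and in 17.8% in the fifth leaf. The table lists genes by identifier and pairs none with a name: 0 of its 39756 identifiers matched the RefSeq gene table for the maize B73 assembly used here, so genes are described by their levels, and gene groups by how they behaved, without names, functions or positions. Known markers of meristem, mesophyll or other cell types could not be looked up for the same reason, so the tissue label was not checked. In a bulk sample, fewer cells of a type and less RNA per cell cannot be told apart. The library numbers in the labels form 1 block per leaf, so a numbering block and the leaf cannot be told apart either. Among the other landraces, replicate 2 of the ninth leaf and replicate 1 of the fifth leaf in Tabloncillo lay close together (-0.33 and -0.37). This was on a scale of leaf genes chosen in these landraces, where the leaves of the other 6 were well apart. Counts for the leaf contrast in Reventador are therefore also given with each Tabloncillo library left out in turn. P-values measure the spread between libraries, which may in part be technical.

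In the ninth leaf of Reventador 58 genes were higher (0.222% of the 26156 tested) and 87 lower (0.333%) than in the fifth leaf, 145 in all (0.554%; limma with a Benjamini-Hochberg adjusted p under 0.05 and the spread shared over 16 landrace by leaf groups). The changes were large for most of these genes: 44 of the 58 higher and 53 of the 87 lower genes changed at least 2-fold, and 8 and 13 of them at least 16-fold. The median log2 difference was 1.65 for the higher genes and -1.28 for the lower genes, against -0.003 over all genes tested. In each of the 145 genes both ninth-leaf libraries lay on 1 side of both fifth-leaf libraries, which was also so in 50.8% of all genes tested. By edgeR's quasi-likelihood test on the recovered reads 67 genes (0.256%) were called (34 higher), all of them among the 145.

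The share of genes called was higher among genes of high level. Of the 1289 genes with a mean of 10000 or more over the 32 libraries, 22 were called (1.71%), with 18 of them lower and 4 higher in the ninth leaf, and their median absolute log2 difference was 0.77. Of the 6220 genes with a mean under 100, 22 were called (0.354%), 15 lower and 7 higher, and here the median was 4.38 and no called gene changed by less than 2.70. The standard error of a difference had a median of 0.18 in the high class and 0.98 in the low one, so a gene of low level needed a far larger change to pass. The 58 higher genes together held 0.345% and 0.414% of all normalized counts in the ninth-leaf libraries, against 0.129% and 0.151% in the fifth-leaf libraries. The 87 lower genes held 0.634% and 0.605% in the ninth-leaf libraries, against 1.07% and 1.01% in the fifth-leaf libraries. These shares describe genes chosen by the same contrast.

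**Figure D1:**
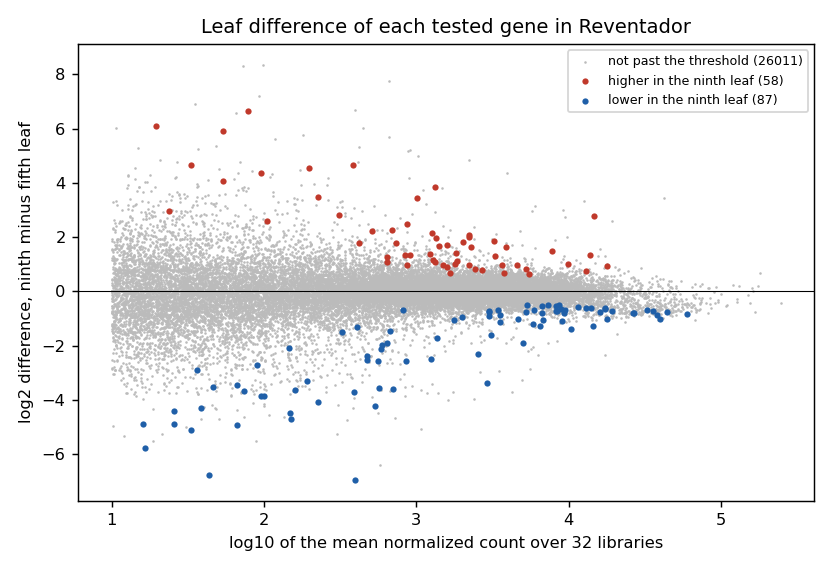
Each point is 1 of the 26156 tested genes, placed by the log10 of its mean normalized count over 32 libraries and by its log2 leaf difference in Reventador, positive where higher in the ninth leaf. The 58 genes called higher (red) and the 87 called lower (blue) lie on either side of 0, and the 22 called genes with a mean under 100 all differ by at least 2.70.

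Among the called genes with a mean of at least 100, the largest rise was in Zm00001eb016290, whose normalized count was 611 and 2774 in the ninth-leaf libraries, against 18.7 and 135 in the fifth-leaf libraries (log2 fold change 4.65, SE 0.98, limma adjusted p = 0.0358). The replicates of each leaf lay several-fold apart in this gene and the leaves still did not overlap. In the other 7 landraces it had a median of 293 in the ninth leaf (from 124 to 754 over 14 libraries), against 229 in the fifth leaf (from 72.8 to 621). Reventador therefore stood below most of these libraries in the fifth leaf, and its replicate 2 of the ninth leaf stood above them all. In the test against the leaf difference of the other landraces, described below, this gene did not pass (difference 4.42, SE 1.05, limma adjusted p = 0.120).

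Zm00001eb232620 had 1231 and 1848 in the ninth leaf, against 53.7 and 76.4 in the fifth leaf of Reventador (log2 fold change 4.54, SE 0.86, limma adjusted p = 0.0214). The other landraces had a median of 71.1 in the ninth leaf and 78.9 in the fifth leaf. Both Reventador libraries of the ninth leaf exceeded the highest of the 14 other ninth-leaf libraries, which held 672. Those of the fifth leaf lay within the range of the others (28.5 to 397). This gene too did not pass the test against the leaf difference of the other landraces (difference 4.56, SE 0.92, limma adjusted p = 0.0622).

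The largest fall was in Zm00001eb009540, with 2.0 and 0 in the ninth leaf, against 184 and 244 in the fifth leaf of Reventador. Both ninth-leaf libraries were at or under the floor of 3 reads, and over the 2 libraries of each leaf 2 reads stood against 382, a ratio of 219-fold lower with an exact 95% counting interval from 60.2 to 1816, which takes reads as independent molecules and leaves out the spread between libraries, and so is too narrow. The fitted value of -6.95 on the log2 scale (SE 1.33, limma adjusted p = 0.0234) depends on the pseudocount. This gene fell in the other landraces too, with a median of 41.0 in the ninth leaf and 406 in the fifth leaf (log2 fold change -3.27, SE 0.52, limma adjusted p = 4.05e-04 without any Reventador library).

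Zm00001eb042650 had no read in either ninth-leaf library, against 67.7 and 8.73 in the fifth leaf of Reventador (limma adjusted p = 0.00777). The fifth-leaf mean was 13.0-fold the floor of 3 reads per library, and it rested mostly on replicate 1, as replicate 2 held 8 reads. The log2 fold change was -4.69 with all libraries and -3.28 without replicate 1 of the fifth leaf. With no read in the ninth leaf it depends on the pseudocount (-7.93 at 0.1 and -1.93 at 10). This gene is among the 94 described below that were at the floor in both ninth-leaf libraries. Elsewhere the gene was expressed in every library, with a median of 196 in the ninth leaf (from 99.2 to 366), against 135 in the fifth leaf (from 25.5 to 323). Reventador thus had no read in the ninth leaf, where the other 14 libraries held at least 99.2, and in the fifth leaf 12 of 14 other libraries exceeded both of its own.

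**Figure D2:**
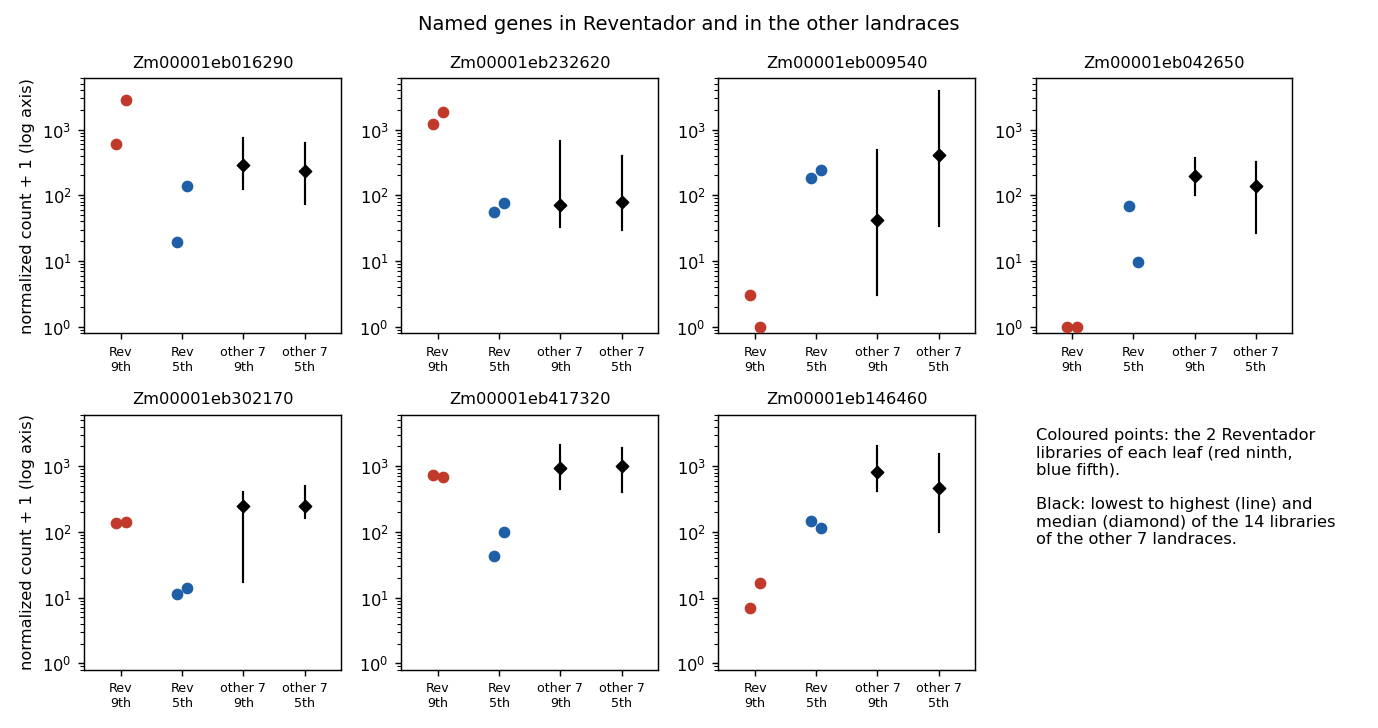
Normalized count plus 1 on a log axis for the 7 genes named from the leaf contrast and from the contrast of leaf differences: red and blue points are the 2 Reventador libraries of the ninth and of the fifth leaf, and black lines and diamonds give the range and median of the 14 libraries of the other 7 landraces. Zm00001eb232620 in the ninth leaf (1231 and 1848) lies above the others, Zm00001eb042650 in the ninth leaf (0 and 0) below them, and Zm00001eb302170 in the fifth leaf (10.5 and 13.1) below them.

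The number of calls rests on each of the 4 libraries: 27 genes passed without replicate 1 of the fifth leaf (81.5% of them higher, against 40% with all libraries), 715 without its replicate 2, 39 without replicate 1 of the ninth leaf and 71 without its replicate 2, with the lone library assumed to vary like the other groups. None of the 4 genes passed without replicate 1 of the fifth leaf (limma adjusted p from 0.142 to 0.355) or without replicate 1 of the ninth leaf (0.0505 to 0.0895), Zm00001eb042650 alone passed without replicate 2 of the ninth leaf, and by edgeR Zm00001eb016290 and Zm00001eb009540 did not pass (adjusted p = 0.0688 and 0.0681). DESeq2 called 1460 genes and a limma fit to the 4 libraries alone called 0 (4459 at an unadjusted p under 0.05). With each library centred on its median 306 were called, of which 23.5% were higher. The 145 genes kept their direction in each of these fits, a direction that leaves without overlap largely fix. Leaving out 1 library of another landrace also moved the count: either ninth-leaf library of Palomero gave 90, the fifth-leaf libraries of Tabloncillo 384 and 381 and its ninth-leaf libraries 276 and 274, either fifth-leaf library of Mushito 297 and either of Gordo 270.

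Against the other landraces, the lower genes were mostly genes whose ninth-leaf level was unusually low in Reventador. Both ninth-leaf libraries lay below all 14 ninth-leaf libraries of the other landraces in 47 of the 87 lower genes (54.0%), as against 6.25% of all genes tested, and in 39 of these 47 the fifth-leaf libraries did not lie outside the others, a share close to that over all genes tested (1354 of 1635). Both fifth-leaf libraries lay above all 14 others in 6 of the 87 (6.90%, against 2.47% of all genes tested). Of the 58 higher genes, 20 (34.5%, against 6.92%) had both ninth-leaf libraries above all others and 16 (27.6%, against 2.65%) had both fifth-leaf libraries below all others. In 22 of the higher and 34 of the lower genes both leaves fell inside the range of the other landraces or overlapped it, against 21901 of all 26156 genes. These counts describe genes chosen for a low or a high ninth leaf, which makes such positions more frequent.

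The genes that separate the leaves elsewhere separated them in Reventador as well. A fit to the 28 libraries of the other 7 landraces, which holds no Reventador library, called 3543 genes (13.5% of those tested), 1959 higher (7.49%) and 1584 lower (6.06%) in the ninth leaf. Of the 1959 higher genes 80.9% were higher in Reventador too, and of the 1584 lower genes 85.0% were lower, against 49.6% and 50.2% of all genes tested. The median log2 difference in Reventador was 0.34 for the higher genes and -0.45 for the lower genes, set beside 0.51 and -0.42 in the landraces that chose them. The larger the difference elsewhere, the larger it was in Reventador: the 48 genes over 2 had a median of 1.71 in Reventador (2.25 elsewhere), and the 87 genes under -2 had -2.24 (-2.49 elsewhere). For these 87 genes the size depended on the fifth-leaf library used, with medians of -2.91 and -2.50 against replicate 1 and of -1.81 and -1.29 against replicate 2.

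Only a small part of these genes passed the threshold within Reventador itself, where 2 libraries face 2. Of the 1959 genes higher elsewhere 21 were called higher in Reventador and 0 lower (58 and 87 genes were so called among all 26156). Of the 1584 genes lower elsewhere 27 were called lower and 2 higher. Read the other way, 50 of the 145 Reventador calls (34.5%) were also called in the other landraces, against 13.5% of all genes tested. Of these 50 genes 48 had the same direction, as had 2931 of all 3543, and the 48 make up 1.35% of the 3543. The other 95 had no call elsewhere, which does not show that those genes were equal in the leaves there. By landrace, the 58 higher genes had their largest median in Mushito (0.55, with 45 of 58 in the same direction) and the 87 lower genes too (-0.44, 74 of 87). Tabloncillo alone had medians of the opposite sign (-0.11 and 0.08), with 24 of 58 and 36 of 87 genes in the same direction. In Tabloncillo 1 library of each leaf lay close together (-0.33 and -0.37), as said above, so its leaf difference is uncertain. Shares in the same direction over all genes were not counted by landrace.

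**Figure D3:**
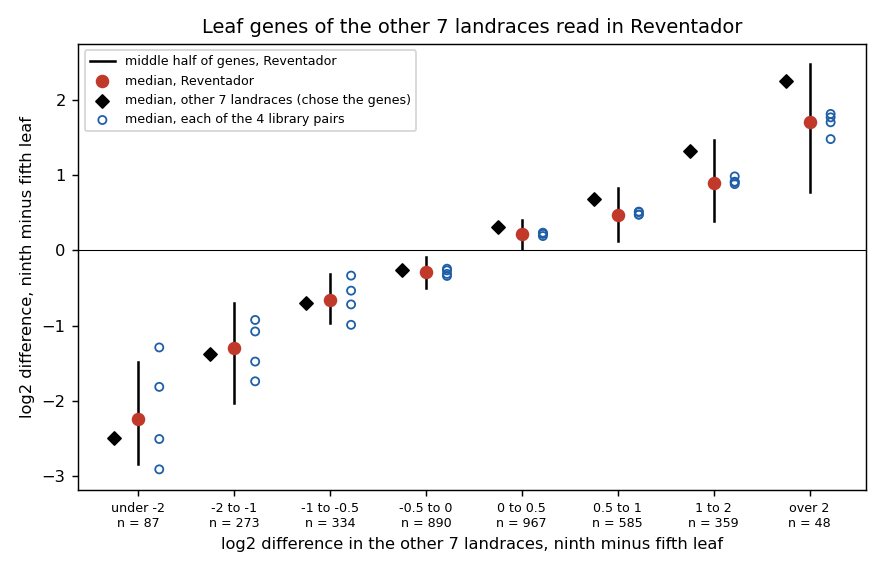
Genes called in the other 7 landraces are binned by their log2 difference there (n per bin on the axis): red points and black lines give the median and the quartiles of the same genes in Reventador, open blue points the median for each of the 4 pairs of 1 ninth-leaf and 1 fifth-leaf library, and diamonds the landraces that chose the genes. Medians in Reventador run in order from -2.24 to 1.71 over the 8 bins.

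The same genes place each library on a leaf scale, given by the mean log2 level of the 1959 genes higher in the ninth leaf minus that of the 1584 lower ones. The Reventador libraries stood at 0.51 and 0.41 in the ninth leaf, against -0.79 and -0.52 in the fifth leaf, so the leaves did not overlap. The other ninth-leaf libraries ran from -0.33 to 0.73 and the other fifth-leaf libraries from -1.32 to -0.37. Replicate 2 of the fifth leaf in Reventador was thus at the weak end of its leaf, at the level of the Nal-tel libraries (-0.52 and -0.59). Between the Reventador replicates of the fifth leaf the genes of the higher set differed little (9.35 in replicate 1 and 9.31 in replicate 2 on the log2 scale), and the genes of the lower set differed more (10.13 and 9.83).

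**Figure D4:**
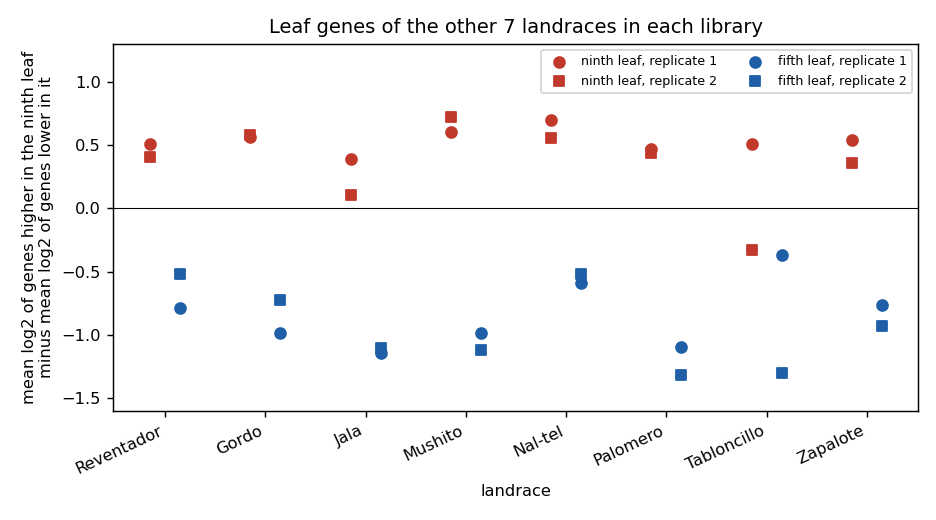
Each point is a library, placed by the mean log2 level of genes higher in the ninth leaf minus that of genes lower in it, with the genes taken from the 7 landraces other than Reventador; red is the ninth leaf, blue the fifth, and shapes mark replicates. Reventador stands at 0.51 and 0.41 in the ninth leaf, against -0.79 and -0.52 in the fifth leaf.

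Whether the leaf difference in Reventador departs from that elsewhere was tested directly, as the Reventador difference minus the mean difference of the other 7 landraces. For 18 genes (0.0688% of those tested) it did at a limma adjusted p under 0.05, with 9 more positive and 9 more negative in Reventador, and each of the 18 was also among the 145. Their median absolute log2 difference was 2.12 in Reventador and 0.16 in the other landraces, where 3 of the 18 were called, against 13.5% of all genes tested. In 11 of the 18 the signs were opposite, and in 7 the sign was the same and the size larger in Reventador. Over all genes tested the signs were the same in 63.2%. As only 3 of the 18 were called elsewhere, an opposite sign does not by itself show a reversed leaf difference. For 8 of the 9 more negative genes both ninth-leaf libraries lay below all 14 of the others, against 6.25% of all genes tested. Of the 9 more positive genes, 5 lay above all others in the ninth leaf (6.92% of all genes tested did). In the fifth leaf 4 of these 9 lay below all others (2.65% of all genes tested did). The test chose the 18 genes for a leaf difference unlike that elsewhere, which makes such sizes and positions more frequent.

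Zm00001eb302170 had 138 and 143 in the ninth leaf, against 10.5 and 13.1 in the fifth leaf of Reventador. In the other landraces the medians were 248 in the ninth leaf (from 16.1 to 402) and 245 in the fifth leaf, where the lowest library held 165. Reventador therefore lay below all 14 others in the fifth leaf (difference of log2 differences 3.98, SE 0.55, limma adjusted p = 0.00455). In the ninth leaf it lay within their range, with 10 of the 14 above both of its libraries. Zm00001eb417320 had the same form, with 732 and 686 in the ninth leaf, against 42 and 97.1 in the fifth leaf of Reventador. The other landraces had medians of 944 in the ninth leaf and 1015 in the fifth leaf, and none of their fifth-leaf libraries was under 399.5 (difference 3.43, SE 0.54, limma adjusted p = 0.0112).

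In the negative direction Zm00001eb042650, which had no read in the ninth leaf, had a difference of -5.28 (SE 0.83, limma adjusted p = 0.0112). This value depends on the pseudocount: it was -8.53 at 0.1 and -2.47 at 10, where the gene did not pass (limma adjusted p = 0.219). Zm00001eb146460 had 5.99 and 15.5 in the ninth leaf, against 146 and 116 in the fifth leaf of Reventador. The other landraces had medians of 808 in the ninth leaf, with no library under 419.9, and 466 in the fifth leaf (difference -4.33, SE 0.72, limma adjusted p = 0.0141). Both genes were thus below the other landraces' median in each leaf of Reventador and below their whole range in the ninth. Of these 4 genes only Zm00001eb302170 passed without replicate 1 of the fifth leaf (limma adjusted p of the other 3 from 0.139 to 0.143) and without replicate 1 of the ninth leaf (0.0822 to 0.173), and Zm00001eb146460 did not pass by edgeR (adjusted p = 0.0733). Without replicate 1 of the fifth leaf 14 genes were called, 12 of them more positive and 4 among the 18. Without its replicate 2 the count was 203, without replicate 1 of the ninth leaf 9 and without its replicate 2 46. It was 41 and 31 without the fifth-leaf replicates of Zapalote, 43 without replicate 1 of its ninth leaf and 30 without replicate 1 of the fifth leaf in Nal-tel.

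Some genes expressed in other landraces were at the floor of 3 reads or fewer in the ninth leaf of Reventador and present, at a fraction of the level elsewhere, in the fifth. There were 94 genes with 3 reads or fewer in both ninth-leaf libraries and a mean of 100 or more in the 28 libraries of other landraces. In the fifth leaf 64 of them were above 3 reads in replicate 1, 47 in replicate 2 and 33 in both. Their median level was 4.89% of the other landraces' fifth-leaf mean in replicate 1 and 1.81% in replicate 2, and 1 gene in replicate 1 and 0 in replicate 2 exceeded 0.5 of that mean. Selecting on a ninth leaf at the floor leaves the fifth leaf equal or higher, so the reverse choice is the comparison: 25 genes were at the floor in both fifth-leaf libraries, of which 9 were above 3 reads in any ninth-leaf library. In the other 7 landraces, the same choice gave from 24 to 55 genes at the floor in the ninth leaf and from 14 to 52 at the floor in the fifth.

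All 94 genes were tested in the leaf contrast. Of these, 7 were called lower in the ninth leaf of Reventador (against 0.333% of all genes tested), a direction the choice of genes fixes, and 0 without replicate 1 of the fifth leaf. In the other landraces 2 of the 94 were called lower (against 6.06% of all genes) and 1 higher (against 7.49%), and there the 94 genes had medians of 153 in the ninth leaf and 168 in the fifth leaf. Over all lower calls, 14 of 87 were at the floor in both ninth-leaf libraries (16.1%, against 3.12% of all genes tested), with fifth-leaf levels of 34.4 in replicate 1 and 13.1 in replicate 2 as medians. Replicate 1 was the higher of the pair in 11 of these 14 genes, and in 10 of the 14 both replicates lay below the median of the fifth leaf in the other landraces. Without these 14 genes, a count made after seeing the data, 131 calls remained.

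**Figure D5:**
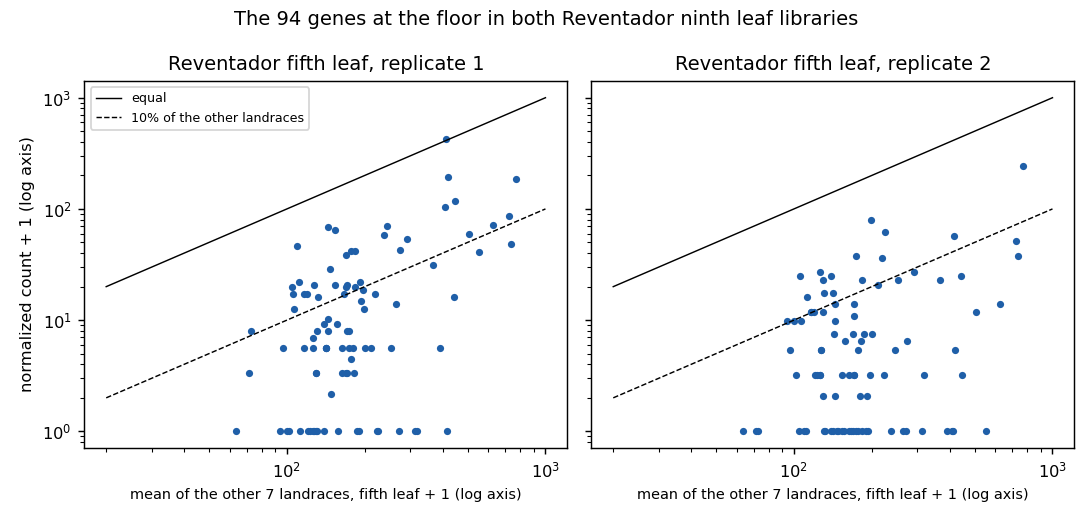
The 94 genes with 3 reads or fewer in both ninth-leaf libraries of Reventador, placed by their mean in the fifth leaf of the other 7 landraces and by their level in each fifth-leaf replicate of Reventador (both plus 1, log axes). In replicate 1 a median of 4.89% and in replicate 2 of 1.81% of the level elsewhere was present, and 1 gene reaches the line of equal levels.

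Replicate 1 of the fifth leaf held more transcripts that the other Reventador libraries lack. Genes with 3 reads or fewer in each of the other 3 Reventador libraries and a mean of at least 100 elsewhere were chosen. In replicate 1 of the fifth leaf 31 of 47 (66.0%) were above 3 reads, and the median over all 47 was 5.03% of the mean elsewhere. The same choice gave 14 of 30 (46.7%, median 1.95%) for replicate 2 of the fifth leaf. It gave 4 of 20 and 3 of 19 for the ninth-leaf replicates. Of the 32 libraries, 2 others had a higher share, replicate 2 of the ninth leaf in Zapalote (26 of 36, 72.2%) and replicate 1 of the fifth leaf in Palomero (24 of 34, 70.6%). By number of genes above the floor, the 31 in replicate 1 of the fifth leaf in Reventador were the most of the 32 libraries.

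Each gene was also listed by the landrace with its highest fifth-leaf level. Among the 31 genes of the 94 above the floor only in replicate 1, this was Mushito for 8, Gordo for 6, Palomero and Zapalote for 5 each, Jala for 4, Tabloncillo for 3 and Nal-tel for 0. Among the 14 above the floor only in replicate 2 it was Nal-tel for 6, Gordo for 3, Palomero for 2, Jala, Tabloncillo and Zapalote for 1 each and Mushito for 0. Over all 94 genes each landrace was the highest for 11 to 19, and the difference between the replicates was not tested. Zm00001eb423130, the most abundant of the genes present in replicate 1 alone, had 427 there, 0 in replicate 2 and 2.0 and 0 in the ninth leaf. In Mushito it too was present in a single library, at 5424 in replicate 1 of the fifth leaf, against 0 in the other 3. Zm00001eb094680 had 117 in replicate 1 and 2.18 in replicate 2 of the fifth leaf of Reventador, and none in the ninth leaf. Its fifth-leaf means were 1456 in Palomero and 1412 in Mushito. Neither gene passed the leaf contrast (limma adjusted p = 0.50 and 0.187).

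Of the 87 lower calls, 0 were above the floor in replicate 1 of the fifth leaf and at or under it in replicate 2, and of the 58 higher calls 1 was, against 604 of the 26156 genes tested. All lower calls had both fifth-leaf libraries above both ninth-leaf libraries, which leaves little room for a replicate 2 at the floor. The 0 was therefore largely fixed by the choice of genes. When replicate 1 was left out, the median log2 difference was 1.60 for the 58 higher genes and -1.20 for the 87 lower genes, and 12 of the 145 genes were still called, 9 of the higher and 3 of the lower ones. A loss of more than 0.5 of the difference was seen in 1 of the 145 genes, which were chosen for a difference from both replicates, and in 8590 of all 26156. Whether reads of other landraces stand behind the levels in replicate 1 was not tested.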

How the data were processed

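The deposited table holds a signal of normalized counts by the authors for 39756 genes in 32 libraries. Per the submitters' processing notes, STAR, featureCounts and DESeq2 were used, and the genome build and annotation are not given in the sources used here. In every library all values (100%, tolerance 0.01 of a step) were whole multiples of 1 step, and dividing by it gave whole reads, 54.8 to 121.0 M reads per library. Most low values were even (76.7% to 87.0% of those from 1 to 20), so reads cannot be taken as independent molecules and the floor of 3 reads covers counting error only. Genes with a mean of at least 10 were tested with limma 3.58.1 (R 4.3.3) on log2(normalized count + 1), which understates changes of low genes, with 16 group means, a trended eBayes and Benjamini-Hochberg adjustment over 26156 genes. Alternatives used edgeR 4.0.16 and DESeq2 1.42.0 on the recovered reads. For the leaf contrast and for the contrast of leaf differences, the 2 largest rises and 2 largest falls with a mean of at least 100 and leaves that do not overlap are named, and for genes in 1 library only the 2 most abundant. The fit was tested on simulated data. The comparison, lists and alternatives were chosen with earlier results of these data known.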

Additional observations from a re-analysis of the deposited data

Results flagged for a closer look

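The leaf difference in Reventador departed from the mean of the other 7 landraces in 18 genes by the limma test of the difference itself. Among those of the 18 with a mean of at least 100, the 2 largest departures in each direction were as follows, on the log2 scale. They were 3.98 in Zm00001eb302170, 3.43 in Zm00001eb417320, -5.28 in Zm00001eb042650 and -4.33 in Zm00001eb146460. The value of -5.28 depends on the pseudocount. Larger positive departures of 4.56 in Zm00001eb232620 and 4.42 in Zm00001eb016290 did not pass (limma adjusted p = 0.0622 and 0.120). Groups of 2 libraries are too small to test a single library as an outlier.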

How the results depend on the processing

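All 145 genes of the Reventador contrast kept their direction in each alternative in which they were tested. Their leaves do not overlap, so this direction was largely fixed by the choice of genes. The number of calls moved, and the cause was not tested unless stated. It was 254 at a pseudocount of 0.1, 306 with centred libraries, 67 by edgeR (50.7% higher, against 40%), 1460 by DESeq2 and 0 with the 4 libraries alone (4459 at an unadjusted p under 0.05), where fewer libraries set the spread. The 32 fits without 1 library gave 27 (without replicate 1 of the fifth leaf in Reventador) to 715 (without its replicate 2). Of the other landraces, either ninth-leaf library of Palomero gave 90 when left out. Leaving out the fifth-leaf libraries gave 384 and 381 for Tabloncillo, 297 for either of Mushito and 270 for either of Gordo, and the ninth-leaf ones of Tabloncillo gave 276 and 274. The difference from the other landraces had 279 genes by DESeq2, 33 without the filter on low values, 61 with a pseudocount of 0.1 and 38 with 10, and 9 (without replicate 1 of the ninth leaf in Reventador) to 203 (without replicate 2 of the fifth leaf in Reventador) over the fits without 1 library, 46 without replicate 2 of its ninth leaf. In those fits it had 41 and 31 without the fifth-leaf replicates of Zapalote, 43 without replicate 1 of its ninth leaf, and 30 without replicate 1 of the fifth leaf in Nal-tel. The leaf effect of the other 7 landraces stayed between 2881 and 4787 genes. Asking a mean of 300 elsewhere left 4 genes at the floor in each of the other Reventador libraries. Of these 4 genes 3 were above the floor in replicate 1 of the fifth leaf. The median over all 4 was 17.2% of the mean elsewhere.

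The labels do not say whether the shared replicate numbers are a pairing, and none was used in the main fit. Libraries with 1 number deviated from their group means with a correlation of 0.024 in Reventador (from -0.175 to 0.112 over 8 landraces). A correlation over all genes cannot settle how the samples were taken. With landrace and number as a replicate block 322 genes were called, with the number alone 132, and for the difference 21 and 20. Of 348 values of named genes 27 no longer passed and 0 reversed. These genes were named for leaves that do not overlap, which largely fixes their direction. The 4 genes of the leaf contrast did not pass without replicate 1 of the fifth leaf in Reventador (adjusted p 0.142 to 0.355), nor without replicate 1 of the ninth leaf or with the 4 libraries alone, and 3 of them did not without replicate 2 of the ninth leaf. Zm00001eb009540 and Zm00001eb042650 did not pass this contrast at a pseudocount of 10 (0.0510 and 0.130), nor Zm00001eb016290 and Zm00001eb009540 by edgeR (0.0688 and 0.0681). For the difference from the other landraces Zm00001eb042650 did not pass at a pseudocount of 10 either (limma adjusted p = 0.219). Zm00001eb302170 passed in each of 43 alternatives, with a difference from 3.23 to 4.12. Genes with few reads have no stable fold at this depth.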

Other observations

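Of the 145 genes called between the leaves of Reventador, 2 pairs stood in adjacent rows of the deposited table, 1 pair higher and 1 lower in the ninth leaf. Whether adjacent rows are neighbours on a chromosome was not looked up.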
